A study of Mus musculus with 4 samples.

Results

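S phase-gated invariant natural killer T (iNKT) cells of the mouse thymus were 1060 of 28910 iNKT cells in 4 single-cell RNA libraries. A member carried at least 5 of 10 replication genes (Mcm3, Mcm5, Mcm6, Mcm7, Hells, Lig1, E2f1, Pola1, Ung and Rad51b) and at most 2 of 9 mitotic genes (Mki67, Top2a, Birc5, Cdk1, Ccnb2, Ube2c, Cenpf, Nusap1 and Prc1), where a gene counted as carried with at least 1 UMI (a unique molecular identifier, so 1 captured transcript). It also had at least 1000 UMIs and 500 genes, under 10% mitochondrial UMIs, and 0 UMIs of Cd79a and Rag1, which mark B lineage cells and immature thymocytes. The gate therefore rests on measured counts, and the contrast of its members with other cells is described here without a test.

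The study compared wild-type (WT) mice with mice lacking ACC1, acetyl-CoA carboxylase 1, encoded by Acaca, with 2 libraries of each genotype. All came from mice of 6 to 8 weeks whose thymic CD1d tetramer-positive cells were enriched magnetically and then sorted as CD3+ CD1d tetramer+. The labels name no allele, no driver of the deletion and no strain, and do not say whether the 2 libraries of a genotype came from separate animals, so p-values measure the spread between these libraries. The gate held 92 cells of WT 1, 389 of WT 2, 177 of ACC1 KO 1 and 402 of ACC1 KO 2. A further 26952 iNKT cells with at most 2 mitotic genes and fewer than 5 of the replication genes are called cells outside S phase below, and 898 cells carried at least 3 mitotic genes.

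iNKT cells are T cells with an invariant T cell receptor that sees lipids on CD1d, and they divide in the thymus before and while they become the subsets iNKT1, iNKT2 and iNKT17. Entry into S phase follows the release of E2F factors, which switch on the MCM helicase subunits and other genes that license and fire replication origins; ribonucleotide reductase, thymidylate synthase and histone genes supply nucleotides and chromatin as replication goes on. A dividing cell also needs new membrane: ACC1 makes malonyl-CoA, the first committed step of fatty acid synthesis, and the SREBP factors switch on fatty acid and sterol genes when lipid runs short.

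E2F motifs were found in some promoters of replication genes, and 3 of those behind the gate are shown with the motifs in capitals. The sequences are the 250 bases before the transcription start in RefSeq on GRCm38.p6, each on its gene's strand. Mcm6 (chr1:128359706-128359955, minus strand) and Mcm5 (chr8:75109259-75109508, plus strand) encode helicase subunits and hold overlapping motifs; Hells (chr19:38930740-38930989, plus strand) encodes a chromatin remodeller.
Mcm6: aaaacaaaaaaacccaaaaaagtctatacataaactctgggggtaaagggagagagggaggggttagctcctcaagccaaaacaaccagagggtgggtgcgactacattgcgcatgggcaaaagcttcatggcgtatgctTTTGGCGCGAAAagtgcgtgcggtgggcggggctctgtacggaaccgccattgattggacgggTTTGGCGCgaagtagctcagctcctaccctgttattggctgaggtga
Mcm5: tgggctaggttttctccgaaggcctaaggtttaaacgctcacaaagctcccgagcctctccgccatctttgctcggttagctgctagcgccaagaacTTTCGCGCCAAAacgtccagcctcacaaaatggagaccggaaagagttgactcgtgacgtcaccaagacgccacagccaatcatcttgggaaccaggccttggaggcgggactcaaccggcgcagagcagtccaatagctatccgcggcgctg
Hells: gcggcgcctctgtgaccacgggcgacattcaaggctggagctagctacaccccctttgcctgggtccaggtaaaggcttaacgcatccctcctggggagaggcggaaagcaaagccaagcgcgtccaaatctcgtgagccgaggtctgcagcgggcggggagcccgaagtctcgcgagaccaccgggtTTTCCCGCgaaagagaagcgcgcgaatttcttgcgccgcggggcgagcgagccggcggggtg
In Mcm6 the first motif began 110 bases before the start and the last 47 bases before it; in Mcm5 the motifs began 153 and 149 bases before it and in Hells 62 bases before it.

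The letters searched were TTTCCCGC, TTTGGCGC, TTTCGCGC and TTTGCCGC on both strands. They occurred in 5 of the 10 replication genes of the gate (Hells, Mcm5, Mcm6, Mcm7 and Pola1) and in 583 of 27025 promoters of the table, which is 2.157%. Beyond the gate they were in 6 of 18 promoters found for origin licensing genes, 3 of 26 for fork genes, 1 of 26 for nucleotide synthesis genes and 0 of 26 for mitotic genes that the gate did not use. A match describes letters in this window and not a bound site.

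The genes used by the gate were high in its cells by construction. Mcm3 stood at 212, 174, 206 and 163 CPM (UMIs of a gene per 1000000 UMIs) in S phase cells, always given in the order of the libraries above, and at 18.3, 20.001, 20.3 and 19.2 CPM in cells outside S phase. E2f1, a transcription factor of the G1 to S step, stood at 42.6, 39.5, 64.8 and 41.7 CPM against 1.0, 2.0, 2.2 and 2.7 CPM. All 10 genes were above the cells outside S phase in every library, with a median log2 ratio of 3.21. Rad51b (homologous recombination), Lig1 (the ligase of Okazaki fragments), Ung (uracil excision) and Pola1 (the catalytic subunit of polymerase alpha) followed the same order.

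Pcna and Stmn1 were lower in cells just below the threshold than in those just above it, in each library. Cells with 4 of the 10 genes numbered 57, 196, 105 and 178 in the 4 libraries, and those with 5 numbered 25, 127, 53 and 105. Pcna, the sliding clamp of the fork, which the gate did not use, stood at 139, 108, 148 and 125 unscaled CPM with 4 genes and 166, 113, 193 and 146 CPM with 5. Stmn1, a tubulin-binding protein of dividing cells, stood at 75.7, 42.2, 179 and 74.4 unscaled CPM with 4 genes and 166, 73.3, 223 and 97.4 CPM with 5. Mcm2, a helicase subunit outside the gate, differed less, at 51.2, 53.9, 112 and 64.6 unscaled CPM with 4 genes. It stood at 60.3, 60.9, 90.1 and 69.7 CPM with 5, so in ACC1 KO 1 it went the other way.

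Other replication genes were higher in the S phase cells too, as a description of cells chosen on their near relatives. Of genes that license and fire origins, 19 of 24 measured were above the cells outside S phase in all 4 libraries (median log2 ratio 1.55), as were 32 of 32 fork genes (median 1.59), 26 of 28 genes of nucleotide synthesis (median 0.90) and 24 of 29 repair genes (median 1.19). Over all 10490 genes measured, 21.4% were above and 35.9% below. Mcm2, a helicase subunit, stood at 123, 84.3, 108 and 82.7 CPM against 17.3, 17.9, 21.9 and 14.97 CPM outside S phase. Cdc6, which loads the helicase, stood at 20.7, 14.1, 22.2 and 15.7 CPM and was below 0.6 CPM outside S phase in every library.

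Rrm2, Hist1h2ap and Ccna2 were low in the gated cells and high in the cells with at least 3 mitotic genes. Rrm2, the cell cycle-bound subunit of ribonucleotide reductase, stood at 10.9, 9.1, 15.2 and 9.4 CPM in S phase cells and at 272, 236, 265 and 198 CPM in cells with at least 3 mitotic genes. Hist1h2ap, a histone H2A gene, stood at 13.1, 14.5, 23.4 and 17.9 CPM, the range of the cells outside S phase, against 1660, 1222, 2000 and 1213 CPM. Ccna2, cyclin A2, stood at 2.2, 1.0, 0.6 and 0.9 CPM against 101, 101, 116 and 101 CPM. Histone transcripts of replication mostly lack a poly(A) tail, so capture by oligo(dT) undercounts them in every class.

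The same order held for much of the replication machinery: 25 of 32 fork genes, 23 of 23 chromatin genes and 15 of 28 nucleotide genes were lower in S phase cells than in cells with at least 3 mitotic genes in all 4 libraries, against 19.4% of all genes. Pcna stood at 231, 184, 265 and 212 CPM in S phase cells and 449, 406, 450 and 335 CPM in the others. Of 24 licensing genes 14 were lower in S phase cells and 4 higher, with a median log2 ratio of -0.30; Cdc6 was 37.9 to 54.6 CPM in cells with at least 3 mitotic genes. Mcm2 and Mcm4 were higher in S phase cells, with Mcm4 at 147, 109, 155 and 102 CPM in S phase cells and 136, 102, 116 and 83.1 CPM in the others. The gated cells thus expressed replication genes above the cells outside S phase. Most of these genes, and Rrm2, Hist1h2ap and Ccna2 above all, were higher on the other side of the limit on mitotic genes. The name S phase is used here for the gate as defined, not for the whole of DNA synthesis, which was not measured.

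**Figure D1:**
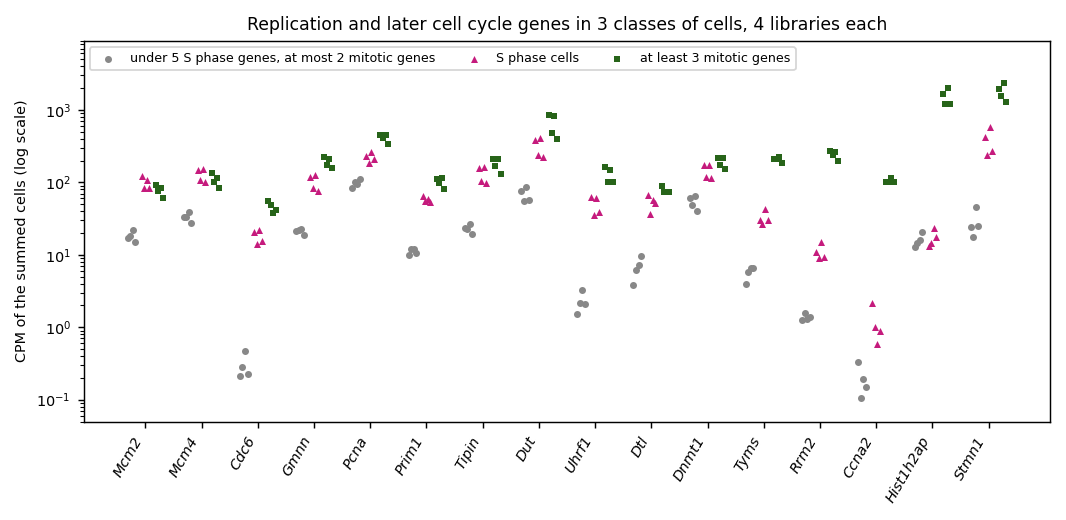
CPM of summed cells (log axis) for 16 genes in cells outside S phase (grey circles), S phase cells (pink triangles) and cells with at least 3 mitotic genes (green squares), 1 point per library in the order WT 1, WT 2, ACC1 KO 1, ACC1 KO 2. Mcm2 and Mcm4 are as high in S phase cells as in cells with mitotic genes, whereas Rrm2, Ccna2 and Hist1h2ap are far lower.

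The gate held a gradient. Among S phase cells with 5 or 6 of the replication genes, Uhrf1, which brings the maintenance methylase to new DNA, stood at 37.1, 18.6, 43.9 and 15.2 unscaled CPM; with 9 or 10 genes it stood at 106, 78.7, 94.0 and 89.3 CPM. Pcna moved in the same order, from 151, 130, 178 and 161 unscaled CPM to 354, 291, 383 and 282 CPM. Rrm2 stood at 2.65, 1.17, 2.51 and 3.29 unscaled CPM with 5 or 6 genes and 13.8, 30.3, 41.8 and 20.2 CPM with 9 or 10, so even the fullest profiles stayed below the 198 CPM that was the lowest value among cells with mitotic genes. These splits use the genes of the gate, and cells with more detected genes also had more UMIs.

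Outside replication, Stmn1, Cdca7 (a Myc-responsive chromatin factor), Igfbp4 (an insulin-like growth factor binding protein), Nrgn (a calmodulin-binding protein), Fabp5 (a fatty acid carrier) and Ezh2 (the Polycomb methylase) were among the genes most raised over cells outside S phase. Stmn1 stood at 427, 241, 574 and 274 CPM in S phase cells and 24.3, 17.3, 45.4 and 25.2 CPM outside. Igfbp4 stood at 52.4, 47.2, 125 and 73.5 CPM against 9.1, 2.9, 19.4 and 14.6 CPM. Among S phase cells with iNKT1 markers only, which were 71.2 to 78.9% of the gate, it had 0, 0, 13 and 0 UMIs, and in those with iNKT2 markers only it stood at 203, 201, 475 and 272 unscaled CPM. Of 25 Myc and ribosome biogenesis genes, 21 were above the cells outside S phase in all 4 libraries, with a median log2 ratio of 0.45. Among all genes measured 21.4% were above, and the median was -0.11.

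Btg1 and Ccl5 were among the genes most lowered against cells outside S phase. Btg1, an antiproliferative factor, stood at 508, 441, 604 and 451 CPM against 1282, 928, 1294 and 985 CPM outside S phase. Ccl5, a chemokine of mature iNKT1 cells, stood at 790, 1363, 1058 and 1229 CPM against 1551, 2575, 2390 and 2488 CPM. Prf1 (perforin), Fasl (Fas ligand), Ifngr1 (the interferon gamma receptor), Cdkn1b (the CDK inhibitor p27) and Bbc3 (the BH3-only protein PUMA) were also lower in all 4 libraries. So were 19 of 27 interferon-induced genes, against 35.9% of all genes measured.

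Most S phase cells carried an iNKT1 profile, yet fewer than outside S phase. With each cell thinned to 3000 UMIs, at least 3 of 12 iNKT1 markers were seen in 80.4, 86.9, 78.0 and 80.6% of S phase cells, 94.2, 97.4, 93.6 and 93.8% of cells outside S phase and 39.7, 57.3, 52.2 and 58.9% of cells with mitotic genes. All 12 markers were lower in S phase cells than outside and higher than in cells with mitotic genes, in all 4 libraries. Tbx21, the T-bet gene that defines iNKT1, stood at 72.0, 123, 85.3 and 109 CPM in S phase cells, 128, 168, 99.0 and 162 CPM outside and 56.4, 82.3, 51.4 and 72.6 CPM with mitotic genes.

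The iNKT2 markers were ordered the other way round by the share of cells with at least 3 of them. At least 3 of 12 were seen in 22.8, 19.0, 28.8 and 21.9% of S phase cells, 18.7, 9.12, 15.5 and 11.4% outside S phase and 41.2, 40.0, 41.5 and 42.4% of cells with mitotic genes. Gene by gene the order was less even: 7 of the 12 were above cells outside S phase in all 4 libraries and 1 was below. Against cells with mitotic genes 10 were lower in all 4 libraries and 0 higher. Zbtb16, which encodes PLZF, the factor of iNKT identity that is highest in iNKT2 cells, stood at 228, 330, 255 and 452 CPM in S phase cells, between 192, 175, 173 and 243 CPM outside and 424, 593, 345 and 689 CPM with mitotic genes. With at least 3 markers the S phase gate thus lay between the other classes for iNKT1 and iNKT2 in all 4 libraries; with at least 2 iNKT2 markers WT 1 was an exception, at 38.0% in S phase cells against 42.6% outside. For iNKT0 markers WT 1 also stood lower in S phase cells (28.3%) than outside (32.2%). Cells with at least 3 iNKT17 markers were rare, at 3.26% and 0.771% of S phase cells in WT 1 and WT 2, and 0 of 177 and 0 of 402 in the ACC1 KO libraries at 3000 UMIs. At full depth they were 6.52, 3.86, 4.52 and 1.49%.

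**Figure D2:**
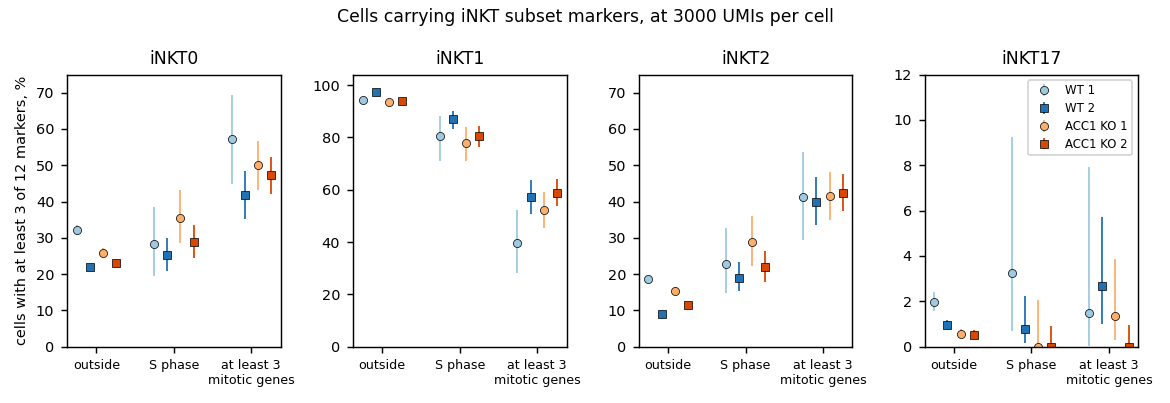
Percentage of cells with at least 3 of 12 markers of each iNKT subset at 3000 UMIs per cell, by class and library, with 95% Clopper-Pearson intervals; the vertical axes differ between panels. S phase cells sit between the other classes for iNKT1 and iNKT2 markers in every library.

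S phase cells summed to 868061, 5091898, 1727459 and 5710636 UMIs per library, so that 1 UMI was worth 1.15, 0.196, 0.579 and 0.175 CPM. Their median depth was 8420, 11150, 8597 and 12722 UMIs, against 4650.5, 6214, 4443 and 7205.5 UMIs outside S phase. Libraries numbered 1 were shallower and carried Ddx3y and no Xist UMIs in S phase cells, libraries numbered 2 the reverse, so number, depth and sex cannot be told apart. T cell genes such as Cd3d were high in every library, at 922, 900, 845 and 750 CPM. No S phase cell shared its barcode with one in another library, and a doublet score marked 1.09, 11.3, 5.09 and 8.71% of them.

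Markers of other cell types were low in S phase cells, as sums of unscaled CPM over each list. Of 12 markers of double-positive thymocytes, Rag2 and Ptcra were at 0 UMIs, and the summed level was 126 to 163 CPM against 118 to 182 CPM outside S phase. The list contains Cd4 and Tcf7, which iNKT cells also express. Dntt (27 UMIs), Ly6d (50 UMIs) and nearly all Trdc (26 of 27 UMIs) came from WT 2. B lineage markers summed to 195 to 228 CPM with Ebf1, Pax5 and Vpreb3 among those at 0, and myeloid and stromal markers to 102 to 144 CPM with Siglech, S100a8 and Col1a2 at 0. Markers of gamma delta T and NK cells summed to 296 and 315 CPM in WT and 200 and 198 CPM in ACC1 KO, with Ncr1 at 0. In contrast, the cells with at least 3 mitotic genes held double-positive markers at 1004 and 842 CPM in WT 1 and ACC1 KO 1, and at 263 and 245 CPM in the libraries numbered 2.

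The gate held 1.90 and 3.98% of WT cells and 2.98 and 4.80% of ACC1 KO cells at full depth, where deeper libraries gave larger shares. With every cell thinned to 3000 UMIs, which left out 269, 110, 609 and 100 cells and no S phase cell, the shares were 0.635% (29 of 4570 cells) in WT 1, 1.01% (98 of 9663) in WT 2, 1.20% (64 of 5321) in ACC1 KO 1 and 1.37% (113 of 8268) in ACC1 KO 2. Both ACC1 KO libraries were above both WT libraries, at 1.29% ± 0.116 against 0.824% ± 0.268 (SD, n = 2), a difference of 0.460 percentage points. The exact two-sided permutation test gave p = 0.33, the smallest that 2 against 2 libraries allow. The 95% Clopper-Pearson intervals were 0.425 to 0.910% for WT 1 and 0.927 to 1.53% for ACC1 KO 1, and 0.824 to 1.23% for WT 2 and 1.13 to 1.64% for ACC1 KO 2; they cover counting error only. Thinning also hides mitotic genes, and without cells that had at least 3 of them at full depth the shares were 0.372, 0.662, 0.789 and 0.762%.

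Relative to cells with at least 3 mitotic genes, which were more frequent in ACC1 KO, the S phase gate was smaller there. Those cells express replication genes too, so this ratio of gates does not give the part of cycling cells in S phase. The 10 replication genes summed to 1696, 1502, 1489 and 1477 unscaled CPM in them and 1568, 1198, 1466 and 1225 CPM in the gate. S phase cells were 39.7 and 40.2% of the S phase cells and the cells with at least 3 mitotic genes together in WT, and 28.8 and 31.7% in ACC1 KO, at 3000 UMIs. The difference was -9.66 percentage points (exact permutation p = 0.33), and -12.5 points at full depth. Cells with at least 3 mitotic genes made up 0.963 and 1.51% of WT and 2.97 and 2.94% of ACC1 KO cells, with the double-positive markers given above in the libraries numbered 1. The part of those markers in this share was not tested.

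**Figure D3:**
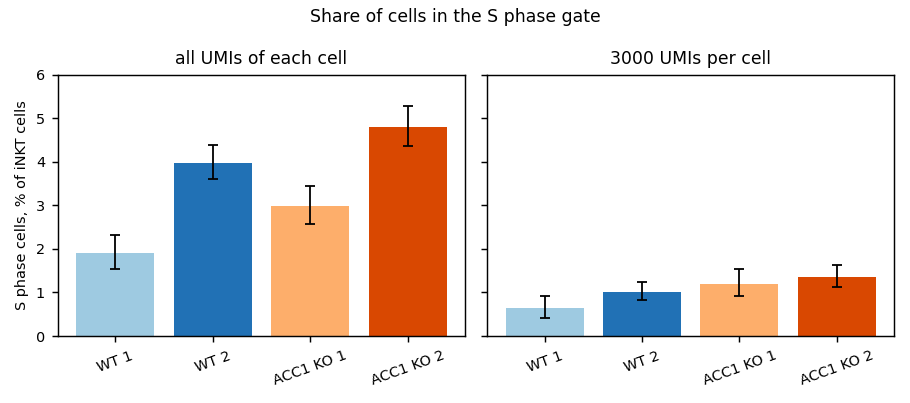
S phase cells as a percentage of iNKT cells in each library, at full depth (left) and with each cell thinned to 3000 UMIs (right); error bars are 95% Clopper-Pearson intervals. At 3000 UMIs the shares run from 0.635% in WT 1 to 1.37% in ACC1 KO 2.

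Between genotypes, the desaturase genes Scd2 and Scd1 were the 2 genes of 10490 (0.0191%) that rose in S phase cells without ACC1, by edgeR's quasi-likelihood test at an adjusted p under 0.05; 0 genes fell (0%). At an unadjusted p under 0.05 there were 273 genes (2.60%). Genotype was the only term of this test, and passing below refers to it unless another fit is named. An edgeR fit with library number as a further term called 131 genes higher and 81 lower. No label establishes that pairing, though number went with depth and with Ddx3y or Xist UMIs in both genotypes. DESeq2 called 6 genes higher (0.0572%), among them Abca1, Acsl3 and Fdps, and 0 lower (0%). Leaving out WT 1 gave 17 higher and 10 lower, leaving out WT 2 gave 8 and 6, leaving out ACC1 KO 1 gave 1 and 0, and leaving out ACC1 KO 2 gave 2 and 1. In data simulated on 10269 genes, the test recovered 0% of 1.5-fold changes, 34% of 2-fold changes and 80% of 4-fold changes, and called 7 of 10074 unchanged genes.

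Acaca, the targeted gene, stood at 48.0 and 41.3 CPM in WT and 72.4 and 81.1 CPM in ACC1 KO (log2 fold change 0.83 ± 0.21 SE, adjusted p = 0.666 by edgeR). The libraries count 3′ ends, so a deletion elsewhere in the gene would leave them in place, and the count does not check the labels. Scd2 (chromosome 19, 44293674 to 44306864, plus strand, mm10), which places the first double bond in saturated fatty acids, stood at 62.2 and 44.5 CPM in WT and 276 and 280 CPM in ACC1 KO. Its log2 fold change was 2.45 ± 0.23 (adjusted p = 0.00195), or 2.15 within number 1 and 2.65 within number 2. Scd1, the neighbouring desaturase gene (chromosome 19, 44394455 to 44407879, minus strand), had 0 and 0 UMIs in WT and 29 and 82 UMIs in ACC1 KO. Against a floor of 3 counts over the WT group it was at least 29.65-fold higher (adjusted p = 0.00898). That call was lost without ACC1 KO 1 (adjusted p = 0.0707) or without ACC1 KO 2 (adjusted p = 0.173).

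Fatty acid synthesis genes leaned the same way as a list. Of 17 measured, 12 had both ACC1 KO libraries above both WT libraries and 0 had both below, against 11.8% above and 14.8% below among all genes. The median log2 fold change was 0.83, with 0.55 within number 1 and 0.84 within number 2, and the median of all genes was under 0.001 in size. Srebf1, which encodes SREBP1, stood at 20.7 and 23.0 CPM in WT and 59.6 and 61.7 CPM in ACC1 KO (log2 fold change 1.46 ± 0.22, adjusted p = 0.0702). Fads2, the delta-6 desaturase, had 0 and 3 UMIs in WT and 8 and 75 UMIs in ACC1 KO, a ratio of 22.2 in UMIs per summed UMI with a counting interval of 7.33 to 110 (adjusted p = 0.225). The groups did not overlap for either gene, and neither passed the test with genotype as the only term. Adding library number as a term called 8 of the 17 genes higher, against 131 of all 10490 genes, though the pairing by number is not established.

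Sterol genes showed the same pattern over more members. Of 25 genes of cholesterol synthesis and SREBP2 control, 20 had both ACC1 KO libraries above both WT libraries and 2 below, with a median log2 fold change of 0.81, and 0.78 and 0.83 within the numbers. Fdps, farnesyl diphosphate synthase, stood at 37.1 and 47.0 CPM against 106 and 109 CPM (log2 fold change 1.32 ± 0.20, adjusted p = 0.0702). Insig1, the sterol-sensing anchor that holds SREBPs back, stood at 5.46 and 9.53 CPM against 27.4 and 27.8 CPM (1.72 ± 0.31, adjusted p = 0.190). Idi1, isopentenyl diphosphate isomerase, stood at 20.7 and 20.8 CPM against 55.5 and 37.1 CPM (1.13 ± 0.26, adjusted p = 0.666). Of these 3 genes DESeq2 called Fdps (adjusted p = 0.0341). By edgeR without WT 1, Fdps (0.0480) and Insig1 (0.0384) passed on adjusted p, and without WT 2 Fdps (0.0240) did.

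The sterol regulatory element TCACCCCAC, which SREBPs bind, was searched in both strands of the same 250 bases. It was in 1 of 19 promoters found for the sterol genes, Hmgcs1, and in 0.555% of all promoters. Hmgcs1 encodes HMG-CoA synthase, and its window (chr13:119690101-119690350, plus strand) is shown with the element in capitals.
Hmgcs1: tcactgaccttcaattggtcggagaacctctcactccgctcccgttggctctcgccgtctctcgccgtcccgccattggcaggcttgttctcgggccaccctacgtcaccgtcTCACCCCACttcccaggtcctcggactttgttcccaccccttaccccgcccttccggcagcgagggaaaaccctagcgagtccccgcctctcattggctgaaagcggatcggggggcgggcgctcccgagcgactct
The element began 137 bases before the start. The CCAAT letters of NF-Y, a partner of SREBPs, were in 17 of the 19 promoters, against 37.49% of all. They were not particular to sterol genes: 20 of 26 promoters of mitotic genes outside the gate held them. So did 7 of 9 for mitotic genes of the gate, 6 of 10 for its replication genes and 10 of 26 for nucleotide synthesis genes. Scd1, Scd2 and Fdps were not in the table.

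**Figure D4:**
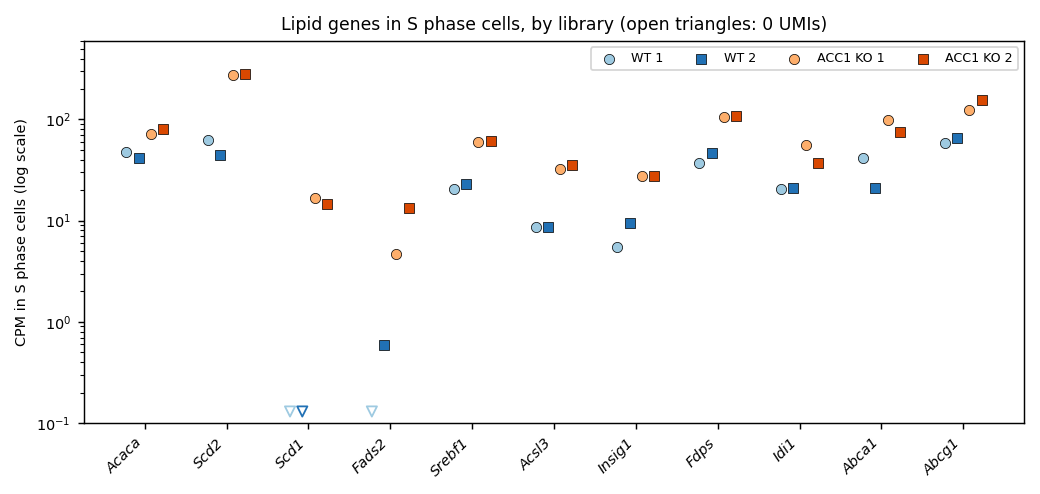
CPM in S phase cells (log axis) of 11 lipid genes by library; open triangles at the bottom stand for 0 UMIs. The genes were mostly named for the smallest p of their list, so that both ACC1 KO points lie above both WT points is a description; Scd2 and Scd1 passed the test.

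Sterol export genes were split. Of 11 targets of the LXR receptors and related genes, 3 were higher without overlap and 2 lower, with a median of -0.11. Among all genes 11.8% were higher and 14.8% lower. Abca1, the cholesterol exporter, stood at 41.5 and 21.04 CPM against 99.9 and 75.5 CPM (log2 fold change 1.64 ± 0.30, adjusted p = 0.206). Abcg1, its partner, stood at 58.9 and 65.3 CPM against 124 and 154 CPM (1.17 ± 0.20, adjusted p = 0.167), and Lpcat3, which puts polyunsaturated acyl chains into phospholipids, at 48.0 and 37.1 CPM against 68.3 and 75.1 CPM (0.82 ± 0.22, adjusted p = 0.666). Without WT 1 the adjusted p of Abca1 was 2.26e-06.

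Other lipid lists lay close to the median of all genes. Among 16 genes of fatty acid activation and storage, 5 were higher and 1 lower without overlap, with a median of 0.02. The shares over all genes were 11.8% higher and 14.8% lower, so this list held more higher genes than its median shows. Acsl3, an acyl-CoA synthetase of lipid droplets, stood at 8.73 and 8.73 CPM against 32.7 and 35.4 CPM (log2 fold change 1.98 ± 0.28, adjusted p = 0.0623, 0.0445 by DESeq2 and 0.000303 by edgeR without WT 1). Acsl4, which activates arachidonic acid, stood at 30.6 and 34.1 CPM against 56.6 and 58.3 CPM (0.82 ± 0.21, adjusted p = 0.666). Among 25 phospholipid and sphingolipid genes, 2 were higher and 4 lower (median 0.03); Pcyt2, of phosphatidylethanolamine synthesis, stood at 21.8 and 30.0 CPM against 45.5 and 49.3 CPM (adjusted p = 0.810). Of 18 genes of fatty acid oxidation, 0 were higher and 2 lower, with a median of -0.02.

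Shares of replication genes without overlap between genotypes were near those of all genes, which were 11.8% higher and 14.8% lower. Of 24 licensing genes 4 were higher and 2 lower without overlap (median log2 fold change 0.02), of 32 fork genes 3 and 2 (median 0.02) and of 28 nucleotide genes 4 and 2 (median 0.05). Of 29 repair genes 0 were higher and 5 lower (median -0.04). Pole2, a subunit of polymerase epsilon, stood at 28.4 and 28.2 CPM against 59.0 and 35.4 CPM (0.70 ± 0.27, adjusted p = 1). Samhd1, which breaks down dNTPs, stood at 58.9 and 94.3 CPM against 124 and 109 CPM, and Rad18, a ubiquitin ligase at stalled forks, at 54.6 and 39.1 CPM against 28.0 and 26.5 CPM (both adjusted p = 1). No gene of these 4 lists passed by DESeq2 or by edgeR with genotype as the only term. Adding library number as a term, a pairing that no label establishes, called 1 nucleotide gene higher and 1 repair gene lower. Over all 10490 genes that fit called 131 higher and 81 lower.

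Lists of stress and death had medians near that of all genes. Among 20 p53 targets 4 were higher and 2 lower without overlap, and among 23 cell death genes 5 and 2. Among 12 genes of the integrated stress response it was 1 and 1, and among 16 ferroptosis defence genes 5 and 2. Over all genes 11.8% were higher and 14.8% lower in this sense. The list medians lay between 0.02 and 0.13. Within numbers 1 and 2 the median was 0.26 and -0.08 for cell death genes and 0.18 and -0.04 for p53 targets. It was positive within both numbers for the remaining lists. Bcl2, the survival factor, stood at 452 and 372 CPM against 655 and 521 CPM (0.52 ± 0.23, adjusted p = 1). Bbc3 stood at 10.9 and 21.6 CPM against 45.5 and 27.0 CPM (0.96 ± 0.34, adjusted p = 1). Neither gene passed the test, though their groups did not overlap.

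Of 20 glycolysis genes both ACC1 KO libraries were above both WT libraries for 7 and below for 3 (median 0.08), against 11.8% and 14.8% of all genes, with Aldoc, an aldolase, at 2 and 2 UMIs against 9 and 32 UMIs (adjusted p = 0.666). Of 27 interferon-induced genes 10 were above and 1 below in the same sense, with no gene passing, and the median was 0.61 within number 1 and -0.01 within number 2. Rsad2 (viperin) stood at 2.18 and 5.56 CPM against 26.3 and 10.4 CPM, and Oasl2 at 14.2 and 13.3 CPM against 29.2 and 19.98 CPM; neither passed. Pik3ip1, an inhibitor of PI3-kinase, stood at 22.9 and 20.8 CPM against 53.1 and 45.8 CPM (1.20 ± 0.24, adjusted p = 0.272, and 0.0480 without WT 1).

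No gene passed as lower in ACC1 KO, and the 8 with the smallest p included genes of cytotoxic cells. Cd160, an NK receptor, stood at 89.5 and 80.4 CPM in WT and 44.96 and 43.8 CPM in ACC1 KO (log2 fold change -0.91 ± 0.20, adjusted p = 0.501). Tcrg-C2, a gamma chain constant segment, stood at 68.8 and 75.6 CPM against 43.2 and 38.2 CPM (-0.84 ± 0.20, adjusted p = 0.666). Cdh1, E-cadherin, stood at 30.6 and 49.6 CPM against 8.76 and 20.2 CPM (-1.40 ± 0.36, adjusted p = 0.666). Without WT 1, Cdh1 passed (adjusted p = 0.000468). The other 5 were Lrrk1 (a kinase), Qpct (glutaminyl cyclase), Clnk (an adaptor of immunoreceptors), Lpar6 (a lysophosphatidic acid receptor) and Slamf7 (a receptor of cytotoxic cells), with log2 fold changes of -1.03, -1.01, -0.80, -0.93 and -0.72 and adjusted p from 0.666 to 0.760. The rule that named these 8 required no overlap between genotypes.

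No subset marker passed the test between genotypes with genotype as its only term. Adding library number as a term called 1 iNKT1 gene higher and 4 lower, 3 iNKT2 genes higher, 2 iNKT0 genes higher and 4 iNKT17 genes lower. Over all 10490 genes that fit called 131 higher and 81 lower, and the pairing by number is not established. Whether the marker shares overlapped depended on the number of markers asked for. The share with at least 3 iNKT1 markers was 83.7% ± 4.56 in WT and 79.3% ± 1.86 in ACC1 KO (SD, n = 2; exact permutation p = 0.667), and the share with iNKT2 markers 20.9% ± 2.69 and 25.4% ± 4.90 (p = 0.667, exact permutation test, n = 2). For iNKT0 markers, those of the earliest precursors, it was 26.7% ± 2.17 and 32.2% ± 4.76 (exact permutation p = 0.33, n = 2). At 4 markers the genotypes did not overlap for iNKT1 (78.3 and 84.8% in WT, 74.0 and 77.6% in ACC1 KO) or iNKT2 (15.2 and 10.3% in WT, 18.6 and 15.4% in ACC1 KO), nor for iNKT1 at 2 markers. Of 12 iNKT1 genes 5 were below and 0 above without overlap, against 14.8% below and 11.8% above among all genes; Cxcr3, a chemokine receptor, stood at 87.3 and 100 CPM against 63.1 and 62.4 CPM, and Xcl1, a chemokine, at 256 and 218 CPM against 179 and 158 CPM (both adjusted p = 1). Of 12 iNKT2 genes 6 were above and 0 below; Plac8 stood at 176 and 128 CPM against 363 and 206 CPM (adjusted p = 0.932) and Il13, a cytokine, at 3.27 and 12.9 CPM against 26.3 and 19.3 CPM (adjusted p = 1). Ccr9, a thymic homing receptor of precursors, stood at 53.5 and 58.3 CPM against 114 and 79.0 CPM (adjusted p = 0.810).

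The iNKT17 genes were few and uneven. The share of cells with at least 3 markers did not overlap between genotypes at 3000 UMIs (exact permutation p = 0.33, n = 2) and did at full depth (exact permutation p = 0.667, n = 2). Blk, a Src-family kinase, had 17 and 35 UMIs in WT and 5 and 1 in ACC1 KO, Il23r (the IL-23 receptor) 15 and 34 against 6 and 0, and Il1r1 (the IL-1 receptor) 21 and 20 against 2 and 0. The groups did not overlap, and none of the 3 passed in S phase cells (adjusted p from 0.774 to 1). Without WT 2, Blk (adjusted p = 0.0426) and Il1r1 (adjusted p = 0.000384) passed.

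Scd2 was higher in both ACC1 KO libraries than in both WT libraries in every split of the S phase cells, given here as unscaled CPM. In cells with 0 mitotic genes it stood at 41.2 and 41.4 CPM in WT and 246 and 281 CPM in ACC1 KO, and in cells with 2 mitotic genes at 80.5 and 52.3 CPM against 302 and 289 CPM. In cells with iNKT1 markers only it stood at 31.8 and 27.5 CPM against 244 and 281 CPM. The 11, 40, 32 and 67 cells with iNKT2 markers only stood at 133 and 103 CPM against 357 and 278 CPM. In WT the level was higher in cells with iNKT2 markers; in ACC1 KO it was so in number 1 and not in number 2.

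The same libraries gave fold changes for the lipid genes in the other classes too. For Scd2 the log2 fold change was 2.84 outside S phase, 2.45 in S phase cells and 2.07 in cells with at least 3 mitotic genes. Levels of Scd2 outside S phase were 39.9 and 28.4 CPM in WT and 228 and 261 CPM in ACC1 KO. For Srebf1 the 3 values were 1.74, 1.46 and 1.95 and for Abcg1 1.11, 1.17 and 1.35. Acsl3 stood at 2.11, 1.98 and 0.92. The difference between S phase cells and cells outside it was -0.48 ± 0.13 for Scd2 and did not pass (adjusted p = 0.0981, interaction term of edgeR).

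**Figure D5:**
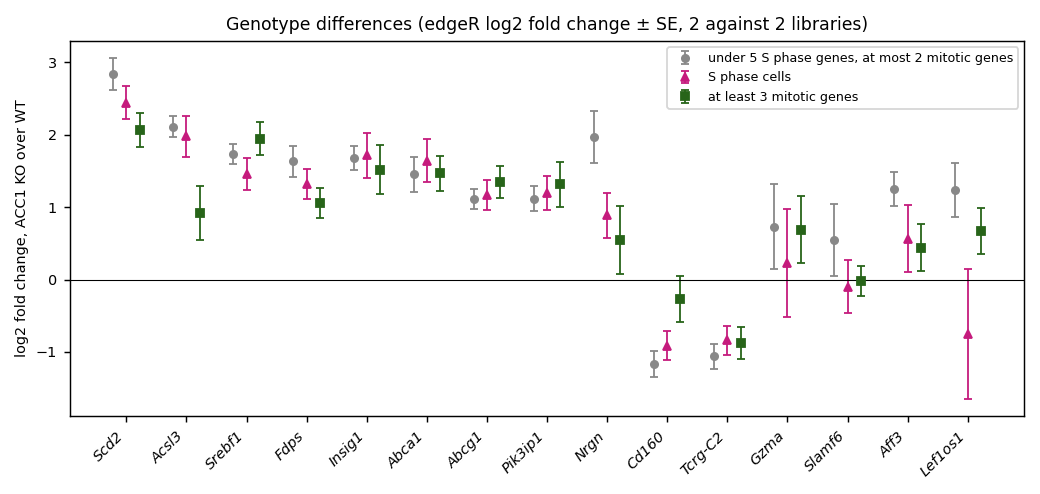
Log2 fold change of ACC1 KO over WT (edgeR, ± SE, 2 against 2 libraries) for 15 genes in cells outside S phase, S phase cells and cells with at least 3 mitotic genes. Scd2 stands at 2.84, 2.45 and 2.07 in the 3 classes. The fold changes of Nrgn, Aff3 and Lef1os1 are lower in S phase cells than in cells outside S phase.

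The genotype difference in S phase cells itself differed from that in cells outside S phase for 23 of 13405 genes (0.172%), by the interaction term of edgeR at an adjusted p under 0.05. This fit had 2 residual degrees of freedom and took its spread almost wholly from all genes together; DESeq2 called 3 genes, Nrgn, Lef1os1 and Mctp1. Nrgn stood at 132 and 185 CPM in WT and 201 and 382 CPM in ACC1 KO S phase cells, and at 15.3 and 18.5 against 42.6 and 89.2 CPM outside S phase, a difference of -1.12 ± 0.12 in log2 fold change (adjusted p = 7.57e-18). It was thus higher in ACC1 KO in both classes, and by a larger ratio outside S phase. Nrgn UMIs came mostly from a minority of S phase cells: it stood at 1.77, 1.39, 9.46 and 6.37 unscaled CPM in those with iNKT1 markers only and 405, 871, 579 and 1479 unscaled CPM in those with iNKT2 markers only. The part of the subset makeup of the classes in this difference was not tested. Without WT 2 the Nrgn difference was -0.93, and it stayed past the threshold without each library in turn. Mctp1, a calcium-binding membrane protein chosen after its values were seen because DESeq2 called it, stood at 31.7 and 17.7 against 25.7 and 47.6 CPM in S phase cells and at 3.48 and 1.68 against 12.5 and 13.4 CPM outside, a difference of -1.75 ± 0.26 (adjusted p = 1.55e-07; 0.0561 without WT 2).

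Lef1os1, transcribed beside Lef1, stood at 74.2 CPM in WT 1 and between 15.9 and 24.8 CPM in the S phase cells of the other libraries, and at 7.41 and 3.88 against 15.2 and 10.9 CPM outside (difference -1.72 ± 0.25, adjusted p = 5.38e-08; -1.15 without WT 1). Gzma, granzyme A, stood at 199 and 553 against 252 and 626 CPM in S phase cells and 182 and 549 against 390 and 812 CPM outside (-0.54 ± 0.09, adjusted p = 1.55e-05), a call lost without WT 2 (adjusted p = 0.0561) or ACC1 KO 1 (adjusted p = 0.538). Aff3, a nuclear factor of lymphoid cells, stood at 53.5 and 104.98 against 76.5 and 163 CPM in S phase cells and at 49.9 and 53.9 against 94.9 and 151 CPM outside (-0.81 ± 0.14, adjusted p = 0.000229). The Aff3 difference shrank to -0.07 without WT 2 and was not called without ACC1 KO 1 (adjusted p = 0.0700).

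Slamf6, a receptor of iNKT development, stood at 64.4 and 32.5 against 29.2 and 50.7 CPM in S phase cells and at 21.9 and 7.67 against 22.7 and 20.03 CPM outside (-0.84 ± 0.19, adjusted p = 0.0121). Sox4, a factor of early precursors, stood at 18.6 and 19.6 against 9.34 and 14.1 CPM and at 7.20 and 3.28 against 8.29 and 7.90 CPM (-1.56 ± 0.31, adjusted p = 0.000583). Neither was called without WT 2 (adjusted p = 0.925 and 0.944) or without ACC1 KO 1 (adjusted p = 1 and 0.301). Clnk, an adaptor of immunoreceptor signalling, stood at 80.8 and 85.9 against 44.4 and 50.4 CPM in S phase cells and at 102 and 106 against 94.98 and 86.5 CPM outside (-0.58 ± 0.14, adjusted p = 0.0234), and was called only without WT 1 when each library was left out in turn. The remaining adjusted p of Clnk were 0.774 when WT 2 was left out, 1 for ACC1 KO 1 and 0.0699 for ACC1 KO 2. Il1r1 differed by -3.36 ± 0.83 (adjusted p = 0.0321) with 21 and 20 against 2 and 0 UMIs in S phase cells, a call lost without WT 1 (adjusted p = 0.603) or ACC1 KO 2 (adjusted p = 1). In the other direction 5 genes were called, Cxcl10, Draxin, Hist1h1d, Itga4 and Zfp382, each with a mean under 20 CPM in S phase cells and named after their values were seen. Of genes above that level, Cbx5, heterochromatin protein 1 alpha (0.43 ± 0.12, adjusted p = 0.147), and Tcrg-C1 (0.52 ± 0.15, adjusted p = 0.205) did not pass.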

How the data were processed

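The authors deposited gene by barcode matrices of UMI counts, unnormalized, for 4 libraries made with a 10x 3′ kit; they were made with Cell Ranger 7.0.0 on mm10, per the submitters' processing notes, and list 32285 genes. UMIs of S phase cells were summed per library and tested with edgeR 4.0.16 (R 4.3.3; TMM, filterByExpr, robust quasi-likelihood, genotype as the term, Benjamini-Hochberg adjustment, threshold 0.05). CPM are TMM-scaled unless called unscaled. The interaction used 8 sums (S phase and outside, 4 libraries) with a library term. Shares used an exact two-sided permutation test. Doublets, scored with scanpy 1.11.5 against simulated ones, were kept and left out as an alternative, as were DESeq2 1.42.0, other filters, limits, depths and libraries. The steps were tested on simulated data.

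Named genes were Acaca, Scd1, the genes called, up to 4 members of each list and 5 interaction genes per direction by smallest p, and the 8 genes with the smallest p where under 5 passed (mean of at least 20 CPM, no overlap between genotypes). The members and lists were chosen with earlier results of these data known. Promoters came from RefSeq. Total depth of S phase cells was 868061 to 5710636 UMIs per library. A few genes of the lists are not reported here.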

Additional observations from a re-analysis of the deposited data

Results flagged for a closer look

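For 9 named genes of 23 called, the ACC1 KO to WT difference in S phase cells differed from that in cells outside S phase, by the interaction term of edgeR over 13405 genes. As differences in log2 fold change they were -1.12 for Nrgn, -1.72 for Lef1os1, -0.537 for Gzma, -0.809 for Aff3, -0.838 for Slamf6, -1.56 for Sox4, -0.577 for Clnk, -3.36 for Il1r1 and -1.75 for Mctp1. All 9 were negative (18 of the 23 were), so that ACC1 KO stood relatively lower in S phase cells. With each library left out in turn, Nrgn and Lef1os1 passed every time; the other 7 each lost the call at least once, and DESeq2 called Nrgn, Lef1os1 and Mctp1.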

How the results depend on the processing

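Of 632 log2 fold changes of 39 genes in S phase cells under the alternatives, 629 kept their direction. These genes were mostly named for their small p in the same data, many with no overlap between genotypes. That choice favours a kept direction, so the count is a description and not a test of robustness. At 3000 UMIs per cell 3 turned: Pcyt2 (-0.16), Pole2 (-0.26) and Il13 (-0.22). Scd2 passed under every alternative run. Scd1 did not at 4 S phase genes (adjusted p = 0.0948 by edgeR) or with the same number of cells per library (0.152), and was not tested at 3000 UMIs or 10 CPM.

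Against 2 genes higher in ACC1 KO there were 6 by DESeq2, 30 without a filter, 1 at a mean of at least 10 CPM, 1 at 4 S phase genes, 6 at 6 S phase genes, 7 with 0 mitotic genes, 1 at 3000 UMIs, 5 without cells with UMIs of other types, and 1 to 17 without each replicate in turn. Against 0 lower there were 15 without a filter and 0 to 10 without each replicate. With the replicate block 131 were higher and 81 lower. Of the 39 genes, picked from these same data, 37 passed. Same-numbered libraries deviated together (r = 0.3894 across 10490 genes). In both genotypes number also went with depth and with Ddx3y or Xist UMIs. The fit without the block leaves that difference in its spread. With 2 numbers and no label for them the pairing is not established. With 1 library of a genotype left, that library is assumed to vary like the others. The 23 interaction genes became 3 by DESeq2, 3 at 10 CPM, 6 against cells with at least 3 mitotic genes, and 13 to 45 without each replicate. Against those cells Nrgn (0.41), Aff3 (0.0104), Slamf6 (0.0925) and Mctp1 (0.14) were positive. The cause was not tested for any of these.

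The share difference of 0.460 points was 0.954 at full depth, 0.961 at 5000 UMIs and 0.910 at 4 S phase genes; at full depth and at 5000 UMIs the genotypes overlapped (exact permutation p = 0.667). The S phase share of S phase cells plus cells with at least 3 mitotic genes differed by -12.5 points at full depth. The iNKT0 share differed by 0.332 points at 4 markers. WT 1, with 92 cells, limits the depth.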
